A study of Mus musculus with 6 samples.

Results

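After 10 h of lipopolysaccharide (LPS), peaks of hnRNP UL1 were compared with those found after 4 h in RAW 264.7, a macrophage-like cell line of the mouse. The comparison covers complete rows of the authors' peak tables whose nearest gene has an Ensembl number below 22416, because the 10 h table is ordered by gene ID and ends there. It holds 5298 peaks of the 4 h sample and 1152 of the 10 h sample, out of 18624 in all 3 tables, and 1958 named nearest genes, out of 5701 named in any of them. Both groups received LPS at 100 ng/ml, 1 for 4 h and the other for 10 h, and an hnRNP UL1 antibody pulled down the chromatin, whose DNA was then sequenced (ChIP-seq). The series also holds an untreated ChIP sample (0 h) and 3 input samples, and the inputs are not analysed here. Each group is 1 library of 1 cell line, so no difference between the times has a replicate check and no p-value is given.

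The protein hnRNP UL1, of the family of heterogeneous nuclear ribonucleoproteins, sits in the nucleus, binds RNA during its processing and joins the response to DNA breaks. LPS activates Toll-like receptor 4, and a macrophage answers in waves: primary response genes are switched on first through NF-kB and MAP kinases, then interferon-response and other secondary genes follow, while feedback inhibitors shut the first wave down. A point of a peak says where the protein was found on chromatin. It does not say whether the gene was transcribed.

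Each row places a peak as a point 2 bp wide and names its nearest gene. A gene is called kept here when rows of both times name it, lost when rows of 4 h alone do, and gained when rows of 10 h alone do. As a second count, points were taken in the gene's span plus 5 kb upstream, with spans from the RefSeq annotation of GRCm38.p6, in which 1952 of the 1958 genes were found. The tables hold no peak height, q-value or read depth. Fewer bound places at 10 h, a shallower library and a stricter peak call therefore cannot be told apart, and "lost" means only that no peak was listed.

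The promoters in which points fell are shown first, since they give the letters behind the start-site peaks described further on. RefSeq windows of 300 bases, from 250 before to 50 after a start, were at hand for 1561 of the genes. Of these 2080 windows 114 held a 4 h point, 40 held a 10 h point and 5 held both. Named genes come first (the naming rule is given with the processing): Nfkbia, whose product holds NF-kB in the cytoplasm, and Ndufa12, a subunit gene of respiratory complex I, with a point at 4 h alone (as had Brca1 and Rpl13, not printed), then Cd164, a sialomucin gene, and Plekha8, a lipid transfer protein gene, with a point at 10 h alone. Dcp1a, an mRNA decapping factor gene, is added as 1 of the 5 with points of both times and was chosen after its values were seen. Capitals mark the deposited point with 10 bases to either side (the 4 h point for Nfkbia and Ndufa12, the 10 h point for the others), and sequences run 5′ to 3′ along the gene's strand.
Nfkbia (GRCm38.p6, chr12:55492598-55492897, minus strand): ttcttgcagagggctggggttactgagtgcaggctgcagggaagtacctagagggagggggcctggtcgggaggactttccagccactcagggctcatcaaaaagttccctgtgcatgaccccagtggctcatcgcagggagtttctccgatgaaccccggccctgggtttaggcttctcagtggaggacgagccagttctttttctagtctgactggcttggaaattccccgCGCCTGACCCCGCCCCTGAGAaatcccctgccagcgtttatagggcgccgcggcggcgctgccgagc
Ndufa12 (GRCm38.p6, chr10:94198785-94199084, plus strand): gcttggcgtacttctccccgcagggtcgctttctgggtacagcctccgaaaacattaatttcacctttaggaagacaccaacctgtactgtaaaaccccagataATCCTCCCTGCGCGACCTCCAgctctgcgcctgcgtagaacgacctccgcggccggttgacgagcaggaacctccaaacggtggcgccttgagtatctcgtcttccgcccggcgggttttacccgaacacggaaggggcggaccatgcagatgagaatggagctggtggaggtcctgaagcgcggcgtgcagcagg
Cd164 (GRCm38.p6, chr10:41519250-41519549, plus strand): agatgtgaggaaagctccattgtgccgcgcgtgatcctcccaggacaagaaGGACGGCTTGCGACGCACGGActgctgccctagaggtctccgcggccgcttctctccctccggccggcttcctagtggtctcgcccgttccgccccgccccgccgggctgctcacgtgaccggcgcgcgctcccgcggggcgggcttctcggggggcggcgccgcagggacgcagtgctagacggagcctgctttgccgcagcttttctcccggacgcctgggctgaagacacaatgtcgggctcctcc
Plekha8 (GRCm38.p6, chr6:54594861-54595160, plus strand): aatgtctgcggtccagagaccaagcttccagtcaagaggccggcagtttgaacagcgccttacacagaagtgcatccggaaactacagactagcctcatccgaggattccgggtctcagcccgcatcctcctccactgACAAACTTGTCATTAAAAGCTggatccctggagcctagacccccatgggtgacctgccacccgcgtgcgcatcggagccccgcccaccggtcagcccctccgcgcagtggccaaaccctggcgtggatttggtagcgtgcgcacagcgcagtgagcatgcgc
Dcp1a (GRCm38.p6, chr14:30479315-30479614, plus strand): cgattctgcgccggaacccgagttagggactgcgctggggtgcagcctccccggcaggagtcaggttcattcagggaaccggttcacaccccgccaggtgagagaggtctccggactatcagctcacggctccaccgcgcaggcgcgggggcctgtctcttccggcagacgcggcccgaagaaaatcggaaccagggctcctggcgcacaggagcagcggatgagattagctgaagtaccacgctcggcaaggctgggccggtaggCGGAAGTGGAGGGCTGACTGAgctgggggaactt

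In these windows the 4 h point of Nfkbia lay 7 bases before the start and that of Ndufa12 136 before it. The 10 h points of Cd164 and Plekha8 lay 189 and 102 bases before their starts. At Dcp1a the 4 h point lay 57 bases before the start and the 10 h point 26 after it. Points of both times thus lay near the same start at different bases. The width of the peaks is not given, so whether the peaks overlapped is unknown. The other windows with points of both times belong to Cluap1 (177 bases before the start at 4 h and 159 before it at 10 h), Nln (29 and 2 before it), Pih1d2 (39 and 35 after it) and Tsen15 (4 and 109 before it).

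Letters in the windows were similar at both times. The median GC content was 65.3% in windows with a 4 h point and 66.8% in those with a 10 h point, against 60.7% in all windows of the genes compared and 52.7% in all 32851 windows of the table. CCGCCC, searched on both strands as all motifs here, was found in 67.5% of the windows with a 4 h point, 75% of those with a 10 h point, 59.6% of all windows of the genes compared and 35.7% of all in the table. In the same order CCAAT was found in 28.1%, 25%, 35.2% and 37.4%, TATAAA in 7.89%, 7.50%, 7.45% and 13.6%, and a motif of the NF-kB site in 8.77%, 5%, 7.69% and 5.78%. For TATAAA the windows with points thus differed little from those of all genes compared. The Nfkbia window holds the NF-kB motif 2 times, beginning 212 and 29 bases before the start. A match is a run of letters and not a shown binding site, and the windows with a 10 h point are few.

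The 10 h table listed far fewer peaks over the same genes. The 1152 peaks of 10 h were 0.217 times the 5298 of 4 h (exact 95% interval 0.204 to 0.232, counting error only), or 4.60 times fewer. They named 678 genes with 1.69 peaks each, against 1830 genes with 2.89 each at 4 h. At least 10 peaks named 81 genes at 4 h and 8 at 10 h. A further 9 peaks at 4 h and 7 at 10 h lay nearest to genes without a name.

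Most genes with a 4 h peak had none at 10 h, and most genes with a 10 h peak had one at 4 h. Of the 1958 genes 1280 were lost (65.4%), 550 were kept (28.1%) and 128 were gained (6.54%). Of the 10 h genes 81.1% had a 4 h peak (77.97 to 84.0%, exact Clopper-Pearson interval here and below, counting error only), and of the 4 h genes 30.1% had a 10 h peak (27.96 to 32.2%). By points in the gene span plus 5 kb, 1146 of 1952 genes were lost (58.7%), 464 kept (23.8%) and 112 gained (5.74%), and 230 held no point of either time. Of the genes kept by rows 436 were also kept by span, while 68 were lost, 18 gained and 27 without a point there. Of the genes lost by rows 1075 were lost by span, and of the gained 93 were gained. Points of both times lay in the span of 6 gained and 22 lost genes.

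**Figure D1:**
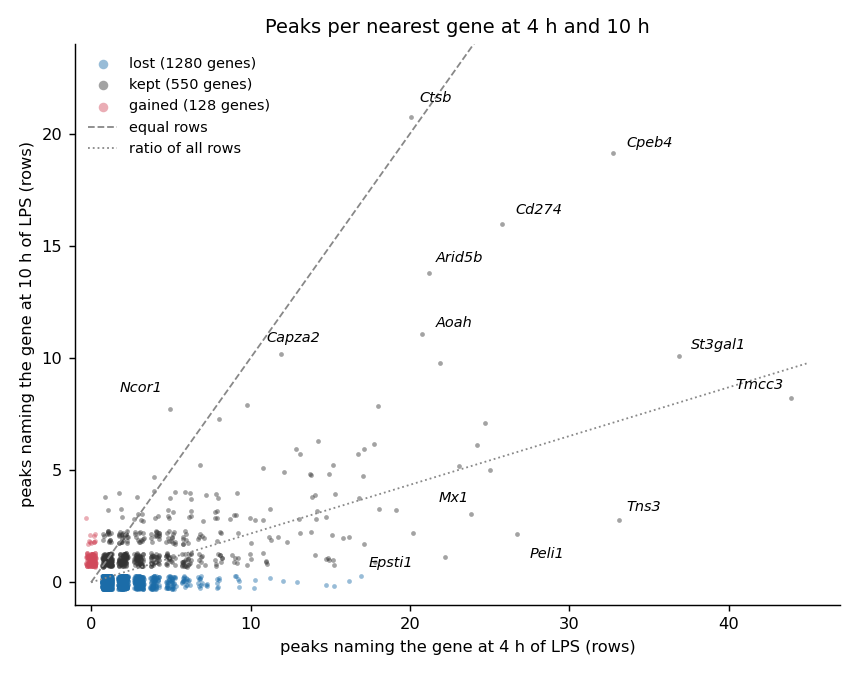
Each dot is 1 of 1958 genes, with the number of peaks naming it as nearest gene at 4 h (x axis, rows) and at 10 h (y axis, rows), spread slightly so that dots can be told apart, coloured as kept, lost or gained. The dashed line marks equal numbers and the dotted line the ratio of all peaks, 0.217; Ctsb and Ncor1 lie above the dashed line, and Tns3 and Peli1 far below the dotted one.

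The gained class was thin. Of its 128 genes 117 had a single 10 h peak, and the most was 3. Of the lost genes 687, or 53.7%, had a single 4 h peak and the most was 17. The kept genes held 2724 peaks at 4 h and 1005 at 10 h, which is 51.5% and 87.8% of the peaks with a gene name. Of them 382 had fewer peaks at 10 h than at 4 h, 144 had equal numbers (115 of these 1 and 1) and 24 had more. Equal or higher numbers at 10 h were thus found in 168 of 550 kept genes, or 30.5%.

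Whether a gene was kept went with how many peaks it had at 4 h. A single 10 h peak is enough to be kept, so a gene with more peaks has more chances of it. The part of this in the rise was not tested. With 1 peak at 4 h 132 of 819 genes had a 10 h peak (16.1%), with 2 it was 25.3%, with 3 to 4 it was 38.3% and with 5 to 9 it was 58.9%. With 10 or more it was 72 of 81 genes (88.9%, 79.95 to 94.8%). Genes with more peaks were also longer, with a median RefSeq length of 22.7 kb in the first of these groups and 90.3 kb in the last, and the part of length was not tested. The ratio of peaks moved much less: 0.186 in genes with 1 peak at 4 h, between 0.163 and 0.176 in the next groups and 0.244 in genes with 10 or more.

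Kept genes had more often been listed before LPS than lost genes. A 0 h peak was listed for 49.8% of the kept genes (45.6 to 54.1%), 26.4% of the lost (24.01 to 28.9%) and 29.7% of the gained (21.9 to 38.4%). Of the 4 h genes with a 0 h peak 44.8% had a 10 h peak (40.8 to 48.8%), against 22.7% of those without (20.3 to 25.1%). The same order was found at each number of 4 h peaks, from 23.4% against 14.3% with 1 peak to 93.1% against 78.3% with 10 or more, and the intervals of the pair overlap in each of these groups. Of the 32 genes with 5 or more peaks at 10 h 26 had a 0 h peak.

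**Figure D2:**
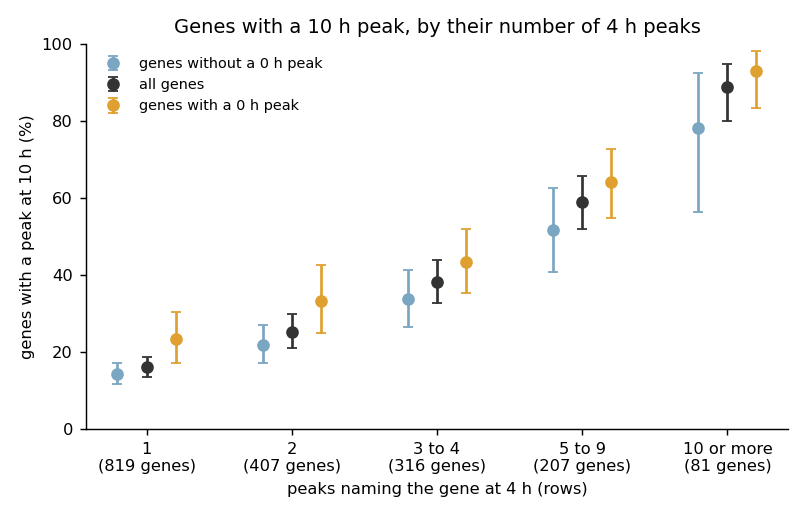
Share of genes with at least 1 peak at 10 h (y axis, %) by the number of peaks naming the gene at 4 h (x axis, rows), for all genes and for genes with and without a 0 h peak; points are shares and bars exact 95% intervals that cover counting error only. The share of all genes goes from 16.1% with 1 peak to 88.9% with 10 or more, and genes with a 0 h peak lie above the others in each group.

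Of the 8 genes with at least 10 peaks at 10 h, Ctsb alone had as many as at 4 h. This gene of the lysosomal protease cathepsin B (ENSMUSG00000021939, chromosome 14, 63122462 to 63145923) had 20 peaks at 4 h and 21 at 10 h. The points of both times ran along the whole gene, from 0.93 kb after its start to 27.6 kb at 4 h and from 0.86 to 24.6 kb at 10 h. Of the 21 points of 10 h 16 lay within 500 bp of a 4 h point, in a gene where points stood close together at both times.

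Cpeb4, the gene of a regulator of poly(A) tails and translation (ENSMUSG00000020300, chromosome 11, 31870104 to 31935635), had 33 peaks at 4 h and 19 at 10 h. All 19 lay inside the stretch of its 4 h points, and 11 lay within 500 bp of one. Cd274, which makes the checkpoint ligand PD-L1 (ENSMUSG00000016496, chromosome 19, 29362107 to 29388095), had 26 and 16, and 15 of the 16 had a 4 h point within 500 bp. Its neighbour Pdcd1lg2, the gene of the related ligand PD-L2, had 12 and 5. At all 3 loci the points of both times covered the same stretch of sequence.

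Arid5b, a chromatin regulator gene (ENSMUSG00000019947, chromosome 10, 68092523 to 68279355), had 21 peaks at 4 h and 14 at 10 h. Here 2 of the 14 lay within 500 bp of a 4 h point, although 12 lay within the stretch of the 4 h points. Points along this gene lay several kb apart. Aoah (ENSMUSG00000021322, chromosome 13, 20794103 to 21036617) encodes the enzyme that removes fatty acid chains from LPS, and had 21 and 11 peaks. At 10 h 6 of its 11 points lay between 3.17 and 8.03 kb after the start. At 4 h the same stretch held 1 point, with 1 more at 3.14 kb just outside it, and 4 further points lay upstream of the start, at -11.3 to -5.15 kb, where 10 h had none.

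The other genes with the most 10 h peaks had fewer of them than at 4 h. St3gal1, a sialyltransferase gene, had 37 and 10, and Vps13d, which encodes a lipid transfer protein, had 22 and 10, of which its span plus 5 kb held 11 and 4 points. Capza2, the gene of a subunit that caps actin filaments, had 12 and 10. Psap, which encodes the lysosomal protein prosaposin, had 18 and 8, and Tmcc3, a gene of a membrane protein with coiled coils, had 44 and 8. At Tmcc3 the 4 h points lay in 2 groups, from just before the start to 47.8 kb and from 152 kb on, and 7 of the 8 points of 10 h lay in the second group.

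**Figure D3:**
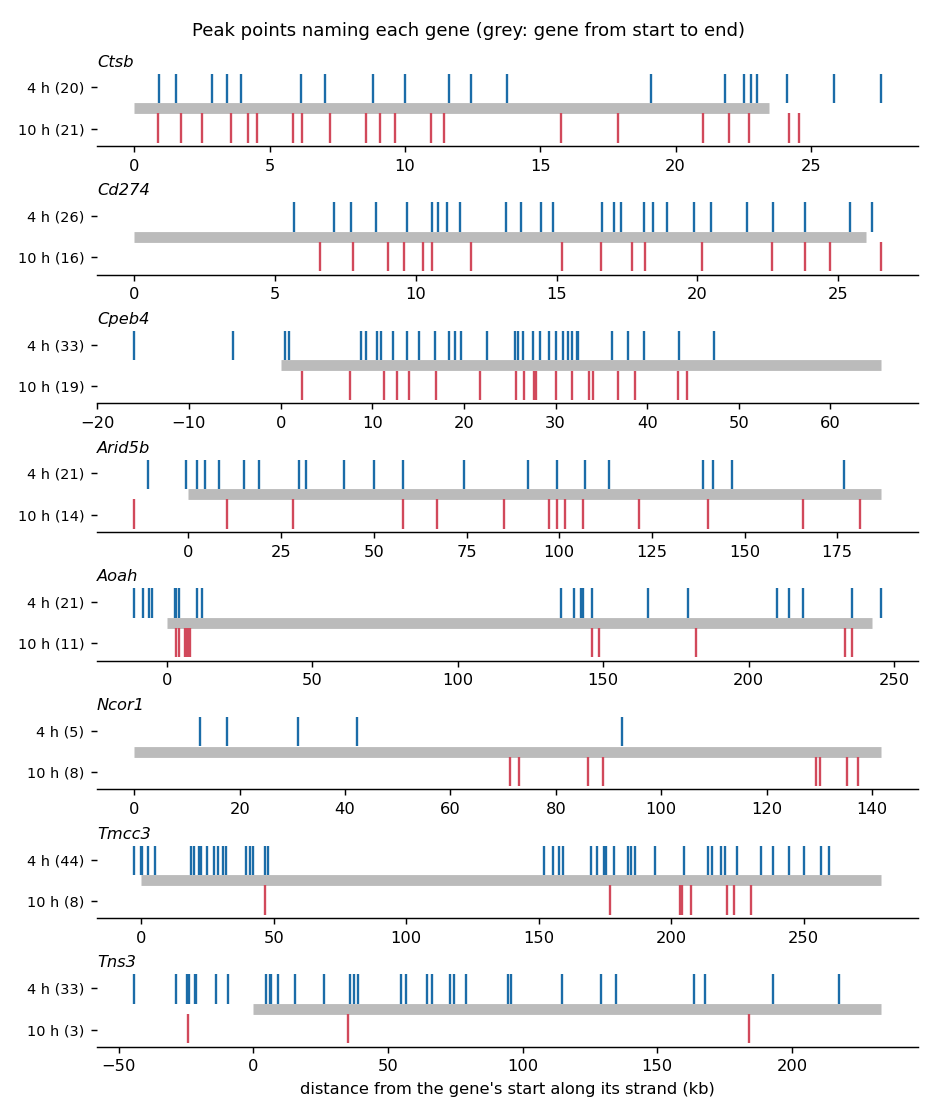
Points of peaks naming 8 genes, as distance from the gene's start along its strand (x axis, kb), with 4 h above and 10 h below the gene (grey bar, RefSeq span) and the number of points beside each row. At Ctsb, Cd274 and Cpeb4 the points of both times run over the same stretch, at Ncor1 4 of the 8 points of 10 h lie beyond the last 4 h point, and at Tns3 3 points stand against 33.

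A few kept genes had more peaks at 10 h than at 4 h, most of them from low numbers. In all 152 of 1958 genes (7.76%) had more at 10 h, and 128 of these were gained genes. Ncor1, which encodes a corepressor that recruits histone deacetylases (ENSMUSG00000018501, chromosome 11, 62315663 to 62457414), had 5 peaks at 4 h and 8 at 10 h. Its 4 h points lay at 12.4, 17.5, 31.0, 42.3 and 92.6 kb from the start, and its 10 h points between 71.2 and 137 kb, 4 of them beyond the last 4 h point, with none of the 8 within 500 bp of a 4 h point. Its span plus 5 kb held 7 and 8 points, so the difference there was 1. Hcfc2, a host cell factor gene, had 1 and 4, Plekha8 had 1 and 3, and Txnrd3, a thioredoxin reductase gene, had 2 and 4. Rev3l, the gene of the catalytic subunit of DNA polymerase zeta, and the mitochondrial ribosome gene Mrpl45 had 2 and 3 each. Rnf130 had 3 and 4, Rab3c, a small GTPase gene, had 4 and 5, and Lcp1, which encodes the actin bundler L-plastin, had 3 and 3. Differences of 1 to 3 peaks are small counts from single libraries.

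Genes gained at 10 h came with 3 peaks at most. Cdh1, the gene of the adhesion protein E-cadherin (ENSMUSG00000000303, chromosome 8, 106603350 to 106670247), had 0 peaks at 4 h and 3 at 10 h, all inside its span or the 5 kb before it. The 9 others named had 0 and 2: Cav2 (caveolin 2), Cd164, Eif2ak4 (the amino acid sensor kinase GCN2), H3f3b (histone H3.3), Hspa8 (the chaperone Hsc70), Kif2a (a kinesin that shortens microtubules), Plek (pleckstrin), Spin1 (a histone reader) and Vac14 (a scaffold of phosphoinositide kinase). Several of these had been listed before LPS, with 2 peaks at 0 h for Hspa8 and 1 each for H3f3b, Kif2a, Plek, Spin1 and Vac14. By span H3f3b had 1 point at 4 h and 0 at 10 h, so its class there was lost. Of the 140 peaks of gained genes 1 lay within 500 bp of any 4 h point and 9 within 10 kb. The counts were the same when all complete rows of the 4 h table were searched. The median distance to the closest 4 h point was 93.6 kb. These distances follow in part from the class itself, since no 4 h peak names a gained gene. The 4 h table also ends at gene number 27620, so 4 h points nearest to later genes are missing from the search.

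Genes lost by 10 h included several with long series of 4 h peaks. Epsti1, an interferon-inducible gene (ENSMUSG00000022014, chromosome 14, 77904239 to 78002656), had 17 peaks at 4 h and 0 at 10 h. Atxn7l1 had 16, and Cybb, which encodes the catalytic subunit of the phagocyte NADPH oxidase (ENSMUSG00000015340, chromosome X, 9435252 to 9487766), had 15. Tiam1, an activator gene of the GTPase Rac, also had 15. Cmpk2, an interferon-inducible nucleotide kinase gene, had 13, the kinase genes Stk10 and Cdk17 had 12 and 11, and Ndufa12 and the transcription factor gene Hivep1 had 10 each. Lgals9, the gene of galectin-9, had 9. All 10 had 0 points at 10 h in their span plus 5 kb as well. Of the 81 genes with at least 10 peaks at 4 h, 9 had no 10 h peak.

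Between these ends stood genes that kept 1 to 3 of many peaks. Tns3, which encodes the adhesion protein tensin 3, had 33 peaks at 4 h and 3 at 10 h, and Peli1, a ubiquitin ligase gene of Toll-like receptor signalling, had 27 and 2. Both 10 h peaks of Peli1 were distal, and by span it had 16 points at 4 h and 0 at 10 h, so its class there was lost. Mx1, an antiviral GTPase gene induced by interferon that RefSeq lists as a transcribed pseudogene in this assembly, had 24 and 3. By contrast Mbnl2 (splicing), B4galt5 (glycosylation) and Pik3r5 (a PI3-kinase subunit) had 25 and 7, 25 and 5, and 24 and 6, near or above the ratio of all peaks.

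Among genes that answer LPS the lists differed in how many peaks were left. The lists were written with earlier results of these data known, and only members that a row of either time names are counted. As a base, 30.1% of all genes with a 4 h peak were kept, and the ratio of all named peaks was 0.216. Since lists with many peaks per gene are kept more often, the share over all genes with as many 4 h peaks, averaged over the members, is given too.

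Of 15 early LPS-induced members, primary response genes, 9 were kept and 6 lost, or 60.0%, against 41.2% over genes with as many 4 h peaks. The second count, by span, had 6 of them kept, 7 lost and 1 gained. The 15 members had 80 peaks at 4 h and 15 at 10 h, giving a ratio of 0.188 (0.100 to 0.328). Tnfaip3, the gene of A20, a feedback inhibitor of NF-kB, had 14 peaks at 4 h and 5 at 10 h. Cd83 and Cd40, genes of costimulatory surface proteins, had 16 and 2, and 15 and 1. Klf6 and Nfkbia had 8 and 1 each, and both were lost by span. The single 10 h peak naming Nfkbia lay 3873 bp from a start of this gene, which is 3239 bp long, and within 500 bp of a 4 h point. It fell outside the span plus 5 kb, which takes in no sequence past the gene's end. Inside it 5 points of 4 h stood against 0 for Nfkbia, and 6 against 0 for Klf6.

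Late LPS-induced genes had 11 members with 92 peaks at 4 h and 33 at 10 h, giving a ratio of 0.359 (0.233 to 0.539). Of these members 5 were kept and 6 lost (45.5% kept, against 52.5% over genes with as many 4 h peaks), and by span 4 and 7. Cd274 and Aoah hold 27 of the 33. Acod1, which makes itaconate, had 9 and 4, all 4 within 500 bp of a 4 h point, while Nos2, the inducible nitric oxide synthase gene, had 10 and 1 (by span 7 and 0) and the cytokine gene Il10 had 9 and 0. Hif1a, the gene of the oxygen-sensing factor HIF-1 alpha, had 6 and 0.

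Among the 13 lists with at least 10 peaks over both times, interferon-response genes had the lowest ratio. Their 6 members had 52 peaks at 4 h and 4 at 10 h, giving a ratio of 0.077 (0.020 to 0.209). Both by rows and by span 2 were kept and 4 lost (33.3% kept by rows, against 54.0% over genes with as many 4 h peaks). Mx1 had 24 and 3, Cmpk2 13 and 0, Rsad2, the gene of the antiviral protein viperin, 11 and 1, and Ifi35 2 and 0. Without Mx1 the ratio was 0.036. Mx1 and the neighbours Cmpk2 and Rsad2 hold 48 of the 52, and the interval treats such clustered peaks as independent. Epsti1, which the list did not hold, had 17 and 0, but it was named because it was lost. It therefore says nothing on other interferon-inducible genes outside the list, which were not gathered.

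Of 12 members that pass on the signal (TLR4, NF-kB and MAP kinases) 8 were kept (also 8 by span), or 66.7%, against 49.5% over genes with as many 4 h peaks. They had 78 peaks at 4 h and 14 at 10 h, giving a ratio of 0.179 (0.094 to 0.319). Besides Peli1, the kinase gene Mapkapk2 had 8 and 2, Map3k1 7 and 1, and Tnip1, whose product works with A20, 6 and 4. The cytokine, chemokine and receptor list kept 6 of 9 members with 4 h peaks (66.7%, against 35.1% over genes with as many), with 30 peaks at 4 h and 8 at 10 h and at most 2 at 10 h in a gene, in Il7r, whose 2 peaks lay outside its span plus 5 kb.

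The macrophage identity list had 11 members with 72 peaks at 4 h and 29 at 10 h, giving a ratio of 0.403 (0.252 to 0.628), and the lysosome list had 15 members with 93 and 36, giving a ratio of 0.387 (0.256 to 0.574). Of their members 45.5% and 46.7% were kept, against 49.4% and 44.3% over genes with as many 4 h peaks. In the count by span 3 macrophage identity members were kept and 8 lost, and 6 lysosome members were kept and 4 lost. Ctsb is in both lists. Without it the ratios were 0.154 and 0.205, below the 0.216 of all genes, so their higher ratios rest on this gene. Spi1, the gene of the myeloid factor PU.1, had 8 and 3, Fcgr1, an antibody receptor gene, 6 and 2, Cybb 15 and 0, and Npc2, a lysosomal cholesterol carrier gene, 19 and 3.

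The list of hnRNP and splicing factor genes also holds other RNA-binding proteins such as Cpeb4. Of its 14 members 6 were kept (42.9%, against 45.4% over genes with as many 4 h peaks), and 5 by span. The list had 98 peaks at 4 h against 33 at 10 h. Its ratio of 0.337 (0.220 to 0.504) was 0.215 without Cpeb4. Mbnl2 had 25 and 7, Celf2 10 and 1 and Hnrnpa2b1 6 and 3 (by span 1 and 0). The chromatin and transcription coregulator list kept 7 of 15 members with 4 h peaks (46.7%, against 43.5%), also 7 by span, and gained 1. It had 83 peaks at 4 h and 31 at 10 h, giving a ratio of 0.373 (0.239 to 0.570). Arid5b and Ncor1 hold 22 of these 31, whereas Zmiz1 had 15 and 3 and the DNA methyltransferase gene Dnmt3a 14 and 2.

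Of 20 regulators of small GTPases, PI3-kinase and adhesion 13 were kept (65.0%, against 54.7% over genes with as many 4 h peaks), and also 13 by span. In this list 176 peaks at 4 h stood against 28 at 10 h, giving a ratio of 0.159 (0.103 to 0.238). The remaining lists were small: 9 ribosomal protein genes had 17 peaks at 4 h and 5 at 10 h. Of these genes 5 were kept (55.6%, against 24.1% over genes with as many 4 h peaks), and 3 by span. The 7 housekeeping genes had 22 and 5, with Ywhaz at 9 and 0, and 5 DNA damage response genes had 10 and 2. Of 6 housekeeping genes with 4 h peaks 1 was kept (16.7%, against 34.99%). Of 4 DNA damage response genes with 4 h peaks 1 was kept (25%, against 31.4%). Kept shares above those of genes with as many 4 h peaks were thus not limited to LPS-response and signalling lists. Of cell types the culture should lack, T and B cell genes had 4 peaks and 0, hepatocyte genes 2 and 1, and no neuronal gene was named. Peaks are not expression, so these counts do not check the cell type.

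**Figure D4:**
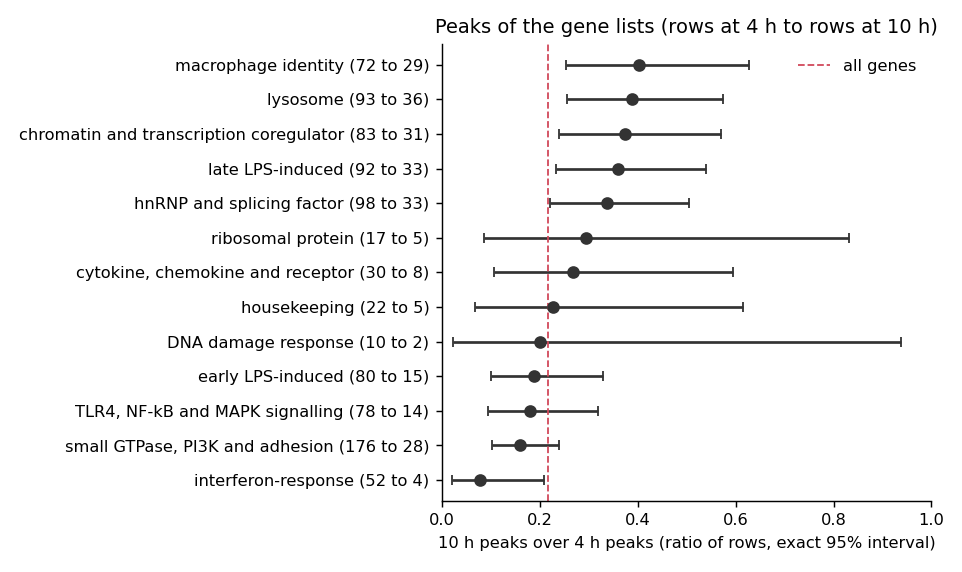
Ratio of 10 h peaks to 4 h peaks (x axis) for the lists with at least 10 peaks over both times (y axis, with peaks at 4 h and at 10 h); bars are exact 95% intervals that cover counting error only, and the dashed line is the ratio over all genes, 0.216. Interferon-response genes lie lowest at 0.077 and macrophage identity genes highest at 0.403, the latter through Ctsb.

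Positions were shared less than genes. Of the 10 h points 234, or 20.3% (18.02 to 22.8%), lay within 500 bp of a 4 h point, and of the 4 h points 4.98% (4.41 to 5.60%) lay within 500 bp of a 10 h point. Among kept genes 148 of 550 had a 10 h point that close to a 4 h point (26.9%, 23.2 to 30.8%). Most genes were thus kept by name without points that close. The median distance from a 10 h point to the closest 4 h point was 3.88 kb. Where a kept gene had at least 2 peaks at 4 h, 584 of its 853 peaks at 10 h, or 68.5%, lay between the outermost 4 h points of that gene.

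Sharing within 500 bp also differed by the kind of place. It was 29.2% of the 10 h points within 1 kb of a start (23.5 to 35.4%), 27.0% in first introns (20.1 to 34.9%), 17.2% in later introns (13.3 to 21.6%) and 11.7% in distal intergenic sequence (7.41 to 17.4%). It was 35.3% just downstream of genes (19.7 to 53.5%, 34 points), and 12.8% and 13.9% at 1 to 2 kb and 2 to 3 kb from a start. Of the 4 h points within 1 kb of a start 7.15% had a 10 h point that near, against 13.4% of those just downstream of genes and 3.12% of the distal ones. Ctsb, Cd274 and Cpeb4 alone hold 16, 15 and 11 of the 234 near points of 10 h. These intervals treat points of the same gene as independent. The part of the density of 4 h points in these shares was not tested.

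Peaks in tight series were common at 4 h and rare at 10 h. When points at most 10 kb apart were joined, 164 series of at least 5 points held 25.4% of the 4 h points, and 10 series held 9.29% of the 10 h points. All 10 series of 10 h had a 4 h point inside, and of the 4 h series 46.3% had a 10 h point inside, as did 27 of the 32 with at least 10 points. The largest at 10 h lay at Cpeb4 with the adjacent 4930524B15Rik and at Ctsb (21 points each), followed by Cd274 with its neighbours (19 points). The median gap between neighbouring points was 13.1 kb at 4 h and 114 kb at 10 h, which moves with the number of points.

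Over all peaks most kinds of place held similar shares at both times. By the authors' annotation, the closest promoter class (a start within 1 kb) held 20.8% at 10 h (18.5 to 23.3%) and 20.1% at 4 h (18.99 to 21.2%). Later introns held 29.3% and 28.0%, first introns 12.8% and 12.7%, and distal intergenic sequence 15.5% and 16.9%. The stretch from 1 to 2 kb held 6.77% at 10 h (5.39 to 8.38%) and 9.14% at 4 h (8.37 to 9.94%), and sequence just downstream of genes held 2.95% (2.05 to 4.10%) and 1.83% (1.49 to 2.23%). The median distance to the nearest start was 5.83 kb and 5.70 kb.

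**Figure D5:**
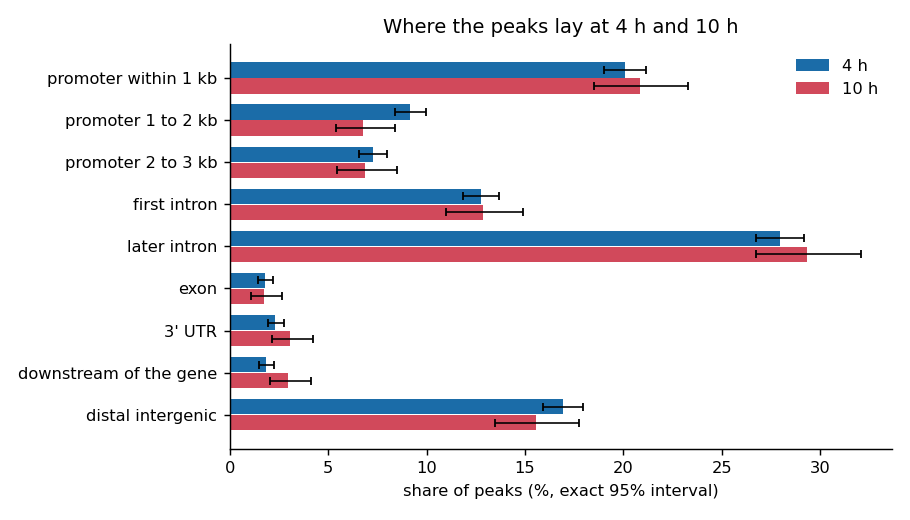
Share of peaks (x axis, %) in each class of the authors' annotation (y axis) at 4 h and at 10 h; bars start at 0 and whiskers are exact 95% intervals that cover counting error only. The shares lie close together, with 20.1% and 20.8% within 1 kb of a start.

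Between the classes of genes the places did differ. Peaks within 1 kb of a start made up 15.2% of the 4 h peaks of kept genes (13.9 to 16.6%) and 25.2% of those of lost genes (23.5 to 26.9%), and introns made up 48.1% and 32.9%. Gained genes had 30.7% of their peaks in that class (23.2 to 39.1%) and kept genes 19.5% (17.1 to 22.1%). Within the kept genes the share in that class was thus 15.2% at 4 h and 19.5% at 10 h, and that of introns 48.1% and 44.3%. All these intervals treat peaks of the same gene as independent and do not test a difference between the times. With all genes weighted equally the share within 1 kb of a start was 27.8% at 4 h and 26.7% at 10 h. Kept genes also had more peaks per gene and were longer, with a median length of 39.0 kb against 25.8 kb for lost and 26.2 kb for gained genes, and the part of length and peak number in these shares was not tested.

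Over the chromosomes the ratio of peaks varied moderately. On the chromosomes with over 300 peaks at 4 h it lay between 0.145 on chromosome 12 (0.111 to 0.187) and 0.250 on chromosome 14 (0.206 to 0.302). Chromosome 6 stood at 0.335 (0.251 to 0.442) from 206 and 69 peaks. On chromosome X, 29 peaks were listed at 4 h and 0 of 1152 at 10 h, which by the limit of 3 peaks that a count of 0 allows is a share of up to 0.260% (a rule apart from the exact intervals), against 0.547% at 4 h. Of these 29 peaks 15 name Cybb, so they are not independent, and all 9 genes named on that chromosome were lost.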

How the data were processed

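The submitters' processing notes name CASAVA 1.8, BWA 0.7.12, MACS2 2.1.0 and the builds GRCm38 and mm10, without their roles or settings. Per the file headers, each deposited row gives a point, an annotation, its nearest gene and a signed distance to that gene's start. No height, q-value or depth is given, so the depth is unknown. Complete rows with a gene number below 22416 were kept, since the 10 h table ends there; the 4 h table ends in 1 incomplete row, which was left out. Counts of rows per gene name and of points per RefSeq span were computed with Python 3.11.15, pandas 2.3.3 and scipy 1.17.1. So were the exact Clopper-Pearson intervals of shares and the exact intervals of ratios (conditional on the sum). The counting steps were checked on rows with planted classes and positions, and the intervals were not checked. With 1 library per time nothing was tested.

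Named genes were the 10 with the most peaks at 10 h, the 10 with the most at 4 h, the 10 kept genes with at least 3 peaks at 10 h and the highest ratio, the 10 gained and 10 lost genes with the most peaks, up to 4 members of each of 16 lists, and Nfkbia, Nos2, Tnfaip3, Spi1 and Il6 (no row in the range). Other genes named were chosen after their values were seen. The members and lists were chosen with earlier results of these data known. Promoter sequences are from RefSeq (GRCm38.p6). Alternatives covered the gene window, minimum number of rows, distance limits, weighting and left-out genes.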

Additional observations from a re-analysis of the deposited data

How the results depend on the processing

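No paired analysis was possible because each time is 1 library, and for the same reason no replicate could be left out. Of 107 alternative values for 30 results, 78 stayed in the interval of the main value or, for numbers of kept, lost and gained genes, within 1.5 times of it. Of the 78, 40 are list ratios. The smallest lists have main intervals so wide that few values could leave them, such as 0.021 to 0.939 for DNA damage response. For these lists staying inside says little. The 3 alternatives (retention by span, the ratio without the 3 genes with most 10 h peaks, autosomes only) were chosen after seeing the data. The ratio of all peaks was 0.190 in the fourth and 0.235 in the fifth part of 5 of the ID range. Within gene spans without the upstream stretch, 77.6% of 10 h genes and 27.9% of 4 h genes were kept. With at least 2 peaks asked of a gene, 177 were kept, 834 lost and 28 gained, and the shares were 86.3% and 17.5%. With peaks within 10 kb of a start they were 74.95% and 24.8%. With peaks within 1 kb of a start, 118 genes were kept and 720 lost, with shares of 52.7% and 14.1%. The share of 10 h points near a 4 h point was 11.2% within 200 bp, 28.8% within 1000 bp and 38.8% within 2000 bp. With genes weighted equally, places within 1 kb of a start held 27.8% at 4 h and 26.7% at 10 h, and introns 31.4% and 35.4%. In genes with peaks at both times these shares were 15.2% and 48.1% at 4 h and 19.5% and 44.3% at 10 h. Without the member with most peaks the list ratios were 0.154 (macrophage identity), 0.205 (lysosome), 0.215 (hnRNP and splicing factor), 0.062 (housekeeping) and 0 (hepatocyte). The cause of these shifts was not tested beyond the smaller number of peaks or genes each alternative takes.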

Other observations

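The places below were chosen after their values were seen. On chromosome 6 neighbouring genes without any 0 h peak held many 10 h peaks: Capza2 had 12 peaks at 4 h and 10 at 10 h, Met, the gene of the hepatocyte growth factor receptor, had 17 and 6, Cav1 had 1 and 0 and Cav2 had 0 and 2. None of the 6 points of 10 h that name Met lay within 500 bp of a 4 h point. On chromosome 19 the neighbours of Cd274 also kept peaks, with 12 and 5 for Pdcd1lg2 and 1 and 1 for Plgrkt. The span of Plgrkt plus 5 kb held 6 and 5 points, but most of these name another gene as nearest and are counted there.

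A gene without a name in the tables, ENSMUSG00000006462 on chromosome 2, had 5 peaks at 4 h and 6 at 10 h, between 167690741 and 167721029 (GRCm38). The protein-coding RefSeq gene closest to these points was Cebpb, which encodes a transcription factor of the inflammatory response. Its end lay 309 bp from the first of the points. Genes that are not protein-coding were not searched.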
